A study of Camellia sinensis with 12 samples.

Results

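Many loci listed for these tea leaves carry an assembly identifier in place of that of an annotated gene, and are called unannotated here. Whether they overlap an annotated gene is not known. The loci described here are the unannotated ones that were listed at 0 in every library of at least 1 tea genotype. They also reached at least 1 FPKM in every library of at least 1 other genotype. FPKM is a level scaled both for the length of a locus and for the number of fragments mapped in the library. The rule found 1095 loci among the 8772 unannotated loci and the 42704 features of the deposited tables. A genotype is called present at a locus when all 3 of its libraries held at least 1 FPKM, absent when all 3 were listed at 0, and intermediate otherwise. Absent is used as a word for the listed value and says nothing of whether the sequence is in the genome of that plant. The FPKM values themselves chose the loci, so the presence patterns, and levels of present against absent genotypes, are a description and were not tested. Levels were tested only between genotypes in which a locus was present. The rule had used those values too, but not which of the present genotypes was higher.

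The libraries were made from leaf RNA of 4 genotypes of Camellia sinensis, the tea plant, all kept in a germplasm bank with no treatment. The Kucha genotypes are Kucha-6, written K6 below, and Kucha-11, written K11. Kucha is a tea known for its bitter taste and for theacrine, a purine alkaloid related to caffeine. The conventional varieties are Yinghong9, written YH9, and Qingxin1, written QX1. Each genotype had 3 libraries, 12 in all, and nothing in the labels says whether they came from separate plants, so the spread between them may be technical. Only 2 genotypes stand for each kind of tea.

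An identifier of the XLOC form is given by transcript assembly programs to a place where aligned reads form a transcript. Loci of this sort outside the annotation can be long noncoding RNAs, transcripts of transposable elements, pieces of untranslated ends, or protein-coding genes that gene prediction missed. The tea plant is an outcrossing, highly heterozygous woody species with a genome rich in transposable elements, and cultivars of outcrossing plants are known to differ in gene content as well as in the activity of shared genes. A transcript can therefore be missing from a cultivar because the sequence is missing, because it diverged so that reads do not align, or because it is silent. FPKM tables alone cannot tell these apart. The files pair no identifier with a gene name, so no function is given. A RefSeq table of 80110 tea genes held 0 of the 1095 identifiers, but XLOC names come from the assembly program and could not match there. Neither sequence nor position was compared with that table, so a shared gene could not be found.

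Absence from some genotypes was far more common among unannotated loci than among annotated genes. The 1095 loci made up 12.5% of all unannotated loci and 17.7% of the 6172 unannotated loci that were present in at least 1 genotype. The same rule picked 529 annotated genes, which is 1.56% of all annotated genes and 2.39% of the 22174 present in at least 1 genotype. Among features present somewhere, the highest genotype mean reached 20 FPKM in 1258 of the 6172 unannotated loci and in 7090 of the 22174 annotated genes. The highest mean over a present genotype had a median of 3.49 FPKM (quartiles 2.16 and 5.98) in the 1095 loci and of 7.82 FPKM (3.61 and 19.4) in the 5077 other unannotated loci that were present somewhere. Among loci with a highest mean of 1 to 2 FPKM, 36.1% of the unannotated and 11.6% of the annotated ones were absent elsewhere. From 5 to 10 FPKM the shares were 17.2% and 1.59%, and at 20 FPKM or more they were 2.15% and 0.268%. The unannotated share was above the annotated one in all 5 level classes, as the bar plots by level and length show.

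**Figure D1:**
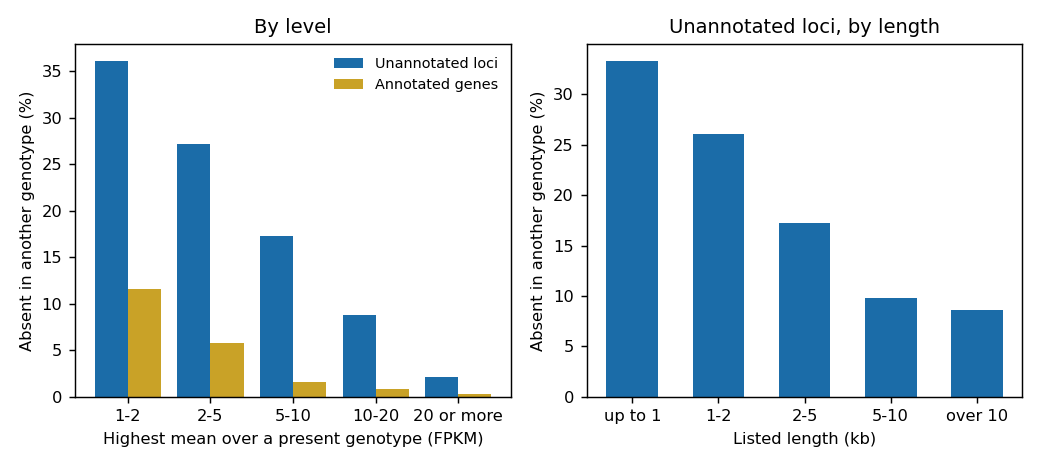
The left panel gives, for 5 classes of the highest mean over a present genotype (FPKM, x axis), the percentage of unannotated loci (blue) and annotated genes (yellow) that were absent in another genotype (y axis). The right panel gives the same percentage for unannotated loci in 5 classes of listed length in kb, and both fall from left to right, from 36.1% to 2.15% and from 33.3% to 8.61% for unannotated loci.

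The loci were shorter than the other unannotated loci that were present somewhere. Their listed length, which is the genomic span from the first to the last base, had a median of 2061 bases (quartiles 1110 and 3898), against 3867 bases (1940 and 8335) in the other unannotated loci that were present somewhere. Spans ran from 289 bases in XLOC_006944 to 118954 bases in XLOC_013286. Spans under 1 kb made up 21.3% of the loci and 9.14% of the others, and spans over 10 kb made up 9.13% and 20.9%. The 2600 unannotated loci present in no genotype were shorter still, with a median of 1708.5 bases and 29.1% under 1 kb. Of the unannotated loci up to 1 kb that were present somewhere, 33.3% were absent elsewhere, against 8.61% of those over 10 kb, and the median highest mean rose over the same classes from 4.02 to 10.4 FPKM. Length and level therefore moved together, and their separate parts were not tested. Both strands were equally used, with 49.5% of the loci and 51.0% of the other present loci on the plus strand.

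The depth of the libraries bears on every value of 0. The files give no counts, but in unannotated loci of up to 1.5 kb the listed values have a clear lowest step. Taken as the 2nd percentile of FPKM times length in kilobases among values above 0, this step was 0.0938 to 0.102 FPKM for a locus of 1 kb in K6, 0.0930 to 0.0998 in K11, 0.0799 to 0.107 in QX1, and 0.0404, 0.0722 and 0.0664 in YH9 replicates 1, 2 and 3. The YH9 libraries thus resolved lower values than the others, and they listed 14.8% to 18.0% of the unannotated loci at 0, against 22.4% to 27.7% in the other 9 libraries. In the 407 loci up to 1.5 kb, the lowest library of a present genotype held a median of 21.6 such steps (quartiles 13.4 and 38.9). It held fewer than 5 in 4 of them and fewer than 10 in 45.

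YH9 had the most present and the fewest absent loci. It was present at 456 of the 1095 loci (41.6%), against 338 in K11, 336 in QX1 and 283 in K6. It was absent at 367, against 409 in QX1, 427 in K6 and 524 (47.9%) in K11. Over all unannotated loci YH9 was also present at the most, 4628, against 4208 in K11, 4062 in QX1 and 3954 in K6. YH9 had the highest mean at 33.4% of the 1095 loci and at 38.0% of the other unannotated loci present somewhere. Its lead was thus not particular to these loci. K11, the other end of the range in absences, had a smallest step close to that of K6. When all values below the coarsest smallest step of the 12 libraries were set to 0, an alternative chosen after seeing the data, YH9 was absent at 433 loci, QX1 at 441, K6 at 462 and K11 at 556, so the order held but the gap of YH9 to QX1 shrank. With presence set at 5 FPKM in place of 1, K11 was present at 88 loci and YH9 at 87, so the lead of YH9 in present loci was lost. How much of the lead goes with the finer resolution of the YH9 libraries was not tested further. The loci held 1.48% to 2.01% of the summed FPKM of unannotated loci per library.

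**Figure D2:**
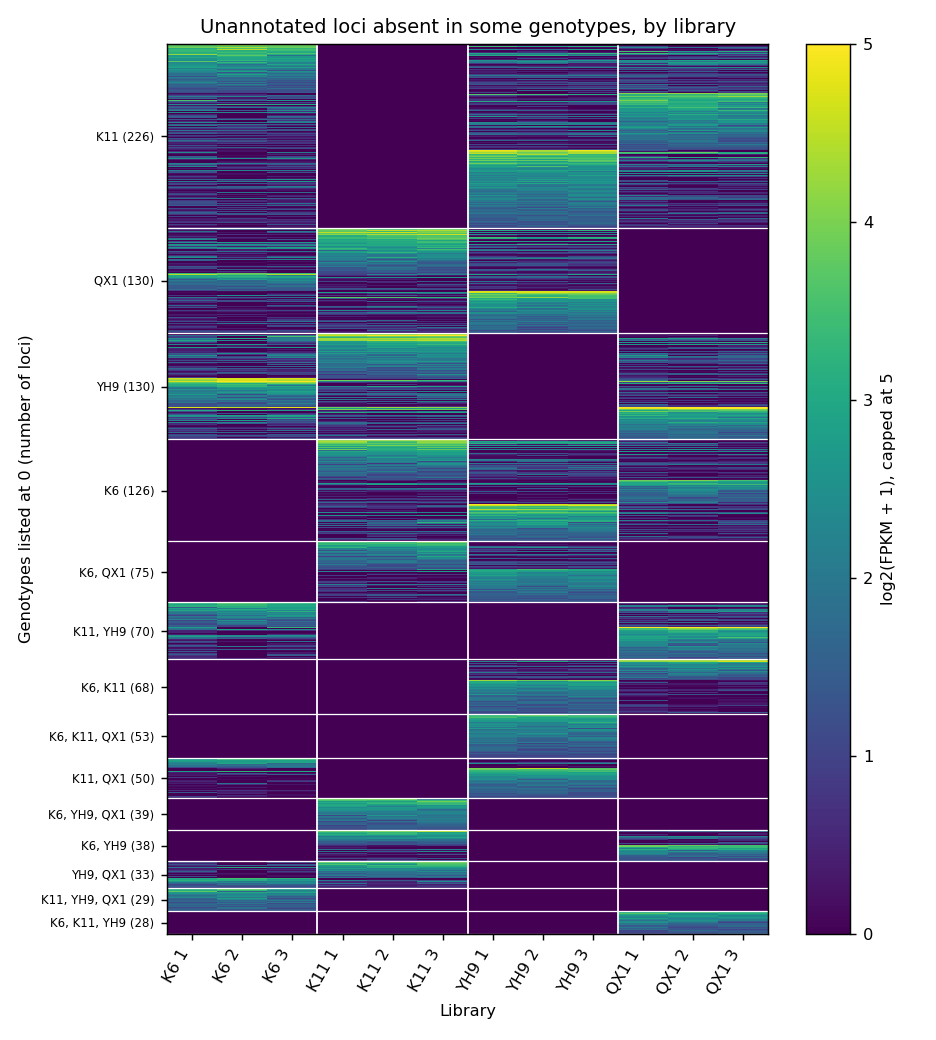
Each of the 1095 rows is a locus and each column a library, with log2(FPKM + 1) as colour, capped at 5. Rows are grouped by the set of genotypes listed at 0, with the number of loci in each set, so the dark blocks restate the rule, and the largest set is the 226 loci absent in K11 alone.

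A single genotype was absent at 612 loci (55.9%), a pair of genotypes at 334 and 3 genotypes at 149. The largest sets were the 226 loci absent in K11 alone, the 130 absent in QX1 alone, the 130 absent in YH9 alone and the 126 absent in K6 alone. Among pairs, K6 and QX1 were absent together at 75 loci, K11 and YH9 at 70 and K6 and K11, the Kucha genotypes, at 68. K11 and QX1 followed with 50, K6 and YH9 with 38, and YH9 and QX1, the conventional varieties, with 33. The intermediate state was common, with 448 loci holding 1 genotype in it and 396 holding 2. Of the 3720 library values of intermediate genotypes, 29.8% were 0 and the median was 0.22 FPKM, and in 68.4% of the 1240 combinations of locus and genotype all 3 values stayed below 1 FPKM.

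Opposite states, with a locus absent in one genotype and present in the other, were fewest between K6 and QX1. This pair held 218 such loci, against 342 for K6 and K11, 351 for K6 and YH9, 376 for YH9 and QX1, 384 for K11 and QX1 and 429 for K11 and YH9. K6, a Kucha genotype, was thus less often opposed to a conventional variety than to the other Kucha genotype. Among ordered pairs, the most loci were absent in K11 and present in YH9 (269) and the fewest were absent in QX1 and present in K6 (97). Annotated genes that met the rule gave 110 and 34 for these ordered pairs, and their own maximum was 125 genes absent in K11 and present in QX1. Their lowest counts were also between K6 and QX1, at 34 and, for absence in K6 and presence in QX1, 50. Over all features tested by limma, 11.8% were called between K6 and QX1, against 19.2% to 23.9% for the other pairs. The likeness of K6 and QX1 was thus not particular to these loci.

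In 251 of the 1095 loci (22.9%) every genotype was either present or absent, and all 14 possible patterns occurred. Presence in a single genotype was the most frequent kind, with 149 loci. YH9 held 53 of these, K11 39, K6 29 and QX1 28, and without K6 replicate 2 the K6 count was 46. A pair of genotypes was present at 55 loci and 3 genotypes at 47. Of the 47, 21 lacked K11 alone, 12 lacked YH9 alone, 8 lacked QX1 alone and 6 lacked K6 alone. Annotated genes were distributed otherwise, as the plot of patterns shows. Their most frequent of the 14 patterns was lacking K11 alone, with 21 genes, and 8 genes were present in YH9 alone. For the unannotated loci, presence in YH9 alone came first, with 53. The difference between the distributions was not tested.

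**Figure D3:**
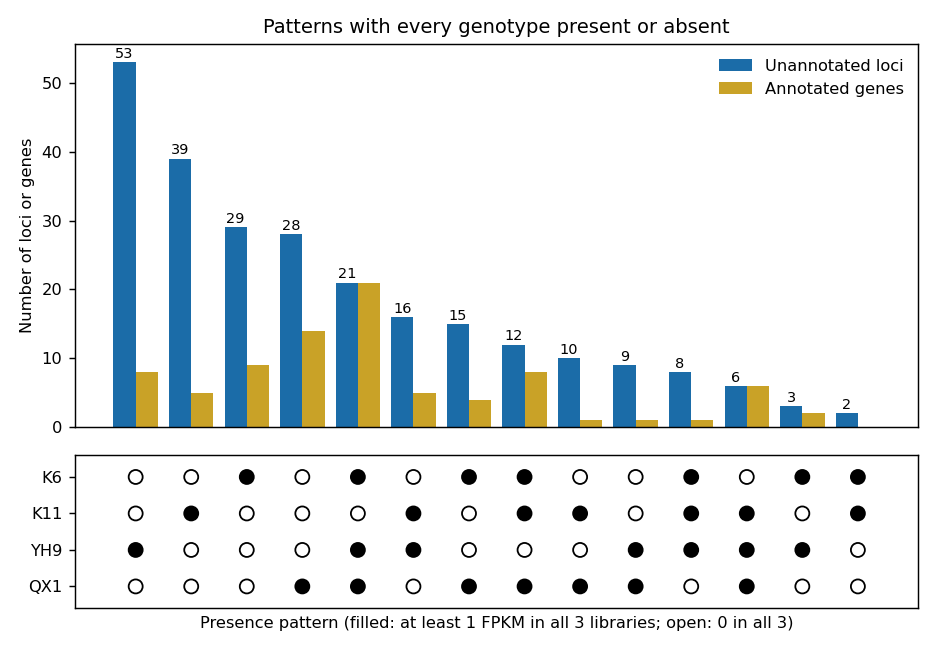
Bars give the number of unannotated loci (blue, with the number above) and annotated genes (yellow) in each of the 14 patterns in which every genotype was present or absent. Filled circles below mark genotypes with at least 1 FPKM in all 3 libraries and open circles those listed at 0 in all 3, and the 4 patterns with a single filled circle stand first, at 53, 39, 29 and 28 loci.

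The strongest locus of each single-genotype pattern showed a clear level in its 3 libraries and 0 in the other 9. XLOC_007499, on the plus strand of scaffold 1347 from 889034 to 892050, stood at 26.8, 26.7 and 23.4 FPKM in the K11 libraries. XLOC_058687, on the plus strand of scaffold 660 from 484950 to 485635, stood at 15.9, 13.7 and 16.7 FPKM in YH9. XLOC_068485, on the plus strand of scaffold 943 from 3049580 to 3050201, stood at 14.2, 18.8 and 10.9 FPKM in K6. These 3 loci were each listed at 0 in all libraries of the other genotypes. XLOC_013340, on the minus strand of scaffold 1673 from 1142032 to 1143249, stood at 16.3, 10.3 and 8.99 FPKM in QX1 and was listed at 0 elsewhere. Coordinates are those of the deposited tables, which name no genome build. These loci were chosen as the highest of their pattern, and the median over each pattern was lower, at 3.30 FPKM for K11, 3.00 for YH9, 2.61 for QX1 and 2.47 for K6.

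The series compares teas of contrasting theacrine content. Loci that set both Kucha genotypes against both conventional varieties, with no genotype intermediate, were therefore listed in full. They were few. Both Kucha genotypes were absent and both conventional varieties present at 9 loci, and the reverse held at 2. The other ways to set a pair of genotypes against the other pair gave 15 and 16 loci (K6 and QX1 present, or K11 and YH9 present) and 3 and 10 (K6 and YH9 present, or K11 and QX1 present).

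Of the 9 loci absent in Kucha, XLOC_034567 had the highest level. Located at 243752 to 245361 on the minus strand of scaffold 3106, it stood at 3.77, 6.79 and 3.33 FPKM in YH9 and at 16.6, 18.6 and 24.7 in QX1. QX1 exceeded YH9 here, with no overlap between their libraries and a log2 difference of YH9 against QX1 of -1.93 ± 0.21 (SE; limma, adjusted p = 5.07e-06). XLOC_038144, on the minus strand of scaffold 3462 from 346197 to 347986, went the other way. It stood at 10.5, 11.5 and 9.07 FPKM in YH9 and at 1.54, 1.65 and 1.14 in QX1, a log2 difference of 2.22 ± 0.15 (SE; limma, adjusted p = 4.36e-08). XLOC_000305 on scaffold 1019 was also higher in YH9, with 5.07, 3.13 and 3.11 FPKM against 1.09, 1.43 and 1.17 (log2 difference 1.07 ± 0.16, SE; limma, adjusted p = 9.3e-05). These log2 differences are on the scale of log2(FPKM + 1), which understates the change of low values. A difference was called at an adjusted p below 0.05 and a size of at least 1. The fit estimated 1 spread per locus over all 12 libraries, and libraries of an absent genotype, all at 0, add no spread. The SE and p-values given for these loci, here and below, therefore tend to be too small.

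The other 6 loci absent in Kucha did not pass the call between YH9 and QX1. XLOC_035306, on the minus strand of scaffold 3165 from 1444332 to 1446734, had means of 5.29 ± 1.17 FPKM in YH9 and 6.13 ± 1.14 in QX1 (SD, n = 3 libraries each here and below). XLOC_005126 on scaffold 1219, which spans 15330 bases, had 2.12 ± 0.13 and 5.15 ± 0.71 FPKM, with a log2 difference of -0.97 just under the size required (limma, adjusted p = 4.86e-05). XLOC_034570 on scaffold 3106 likewise fell short, with 1.96 ± 0.48 FPKM in YH9 and 5.07 ± 2.52 in QX1 and a log2 difference of -0.94 (limma, adjusted p = 0.0101). The lowest 3 were XLOC_023720 on scaffold 2279, XLOC_040847 on scaffold 3716 and XLOC_019328 on scaffold 1989. XLOC_023720 had 2.52 ± 0.44 and 2.77 ± 0.70 FPKM, XLOC_040847 1.47 ± 0.29 and 1.87 ± 0.08, and XLOC_019328 1.5 ± 0.05 and 1.27 ± 0.07. With presence set at 2 FPKM, 4 of the 9 loci remained, XLOC_034567, XLOC_035306, XLOC_005126 and XLOC_023720, whose lowest values in YH9 and QX1 were 3.33, 4.18, 2.03 and 2.03 FPKM. The lowest such values of the other 5 were 1.09 FPKM in XLOC_000305, 1.14 in XLOC_038144, 1.2 in XLOC_019328, 1.22 in XLOC_040847 and 1.41 in XLOC_034570.

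The 2 loci present in both Kucha genotypes and absent in both conventional varieties were XLOC_004120 and XLOC_013760. XLOC_004120, on the minus strand of scaffold 118 from 645362 to 646760, stood at 2.72, 7.28 and 4.32 FPKM in K6 and at 4.15, 7.92 and 6.08 in K11. The ranges overlapped, with a log2 difference of -0.33 that was not called (limma, adjusted p = 0.32). XLOC_013760, on the minus strand of scaffold 1695 from 3400674 to 3401663, stood at 8.11, 7.52 and 5.56 FPKM in K6 and at 3.16, 1.52 and 1.33 in K11. K6 was the higher, by 1.46 ± 0.21 on the log2 scale (SE; limma, adjusted p = 7.02e-05). Without a library, this count of 2 rose to 4 without K6 replicate 2 or without YH9 replicate 3 and to 6 without QX1 replicate 1, and the 9 became at most 13. With presence set at 0.5 FPKM, 14 loci were absent in both Kucha genotypes and present in both conventional varieties, and 7 the reverse.

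Most of the 10 strongest loci were high in a single genotype and near 0, not at 0, in another. XLOC_030052, on the plus strand of scaffold 2753 from 247256 to 249405, had the highest level of all, at 59.8, 57.1 and 55.4 FPKM in QX1. It was listed at 0 in all K11 and YH9 libraries and at 5.62, 0 and 8.65 FPKM in K6, so the K6 libraries did not resemble each other. XLOC_057070 on scaffold 6218 stood at 31.3, 36.6 and 34.4 FPKM in QX1, at 0.08 in a single YH9 library, and at 0 in all others. XLOC_061888 on scaffold 740 stood at 27.9, 29.9 and 33.2 FPKM in K6, between 0.61 and 0.91 in QX1, and at 0 in K11 and YH9.

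Other loci among the 10 strongest were high in K11, YH9 or K6. XLOC_055699 on scaffold 5974 stood at 31.2, 36.7 and 28.2 FPKM in K11 and between 0.68 and 2.86 in YH9, and was absent in QX1. XLOC_035380 on scaffold 3176 reached 28.0, 20.2 and 28.6 FPKM in YH9 and was absent in K11. XLOC_010633 on scaffold 1516 had 29.9, 25.7 and 20.1 FPKM in YH9 and was absent in K6. XLOC_034720 on scaffold 3117 had 24.8, 25.1 and 25 FPKM in YH9, was absent in QX1, and held at most 0.09 in any Kucha library. XLOC_057755 on scaffold 6353 stood at 23.8, 24.6 and 25.7 FPKM in K6, between 0.60 and 1.94 in K11 and QX1, and at 0 in YH9. Only XLOC_063489 and XLOC_007499 among the 10 had every genotype present or absent.

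XLOC_063489 was the strongest locus present in 3 genotypes. It lies on the plus strand of scaffold 786 from 401012 to 402130 and stood at 25, 22.4 and 26.9 FPKM in K6, 13.8, 17.7 and 16.8 in K11, and 43.5, 48.1 and 39.5 in QX1, with 0 in all 3 YH9 libraries. The 3 present genotypes did not overlap. QX1 exceeded K11 by a called difference (log2 difference of K11 against QX1 of -1.39 ± 0.12, SE; limma, adjusted p = 5.08e-07), while K6 differed from K11 by 0.60 and from QX1 by -0.79, below the size required.

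The strongest loci of the other patterns with 3 present genotypes were long. XLOC_066361, absent in QX1 alone, spans 42481 bases on scaffold 874, with means of 2.33 ± 0.62 FPKM in K6, 10.6 ± 1.8 in K11 and 13.9 ± 3.4 in YH9. XLOC_005236, absent in K11 alone, spans 33793 bases on scaffold 1225, with 2.17 ± 1.00 FPKM in K6, 9.73 ± 1.1 in YH9 and 18.7 ± 4.2 in QX1. XLOC_010551, absent in K6 alone, spans 22694 bases on scaffold 1514, with 10.6 ± 0.8 FPKM in K11, 5.39 ± 1.08 in YH9 and 7.16 ± 0.57 in QX1. In each of these the absent genotype had no library above 0, as the rule requires, and the present ones had means from 2.17 to 18.7 FPKM.

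Among patterns with a pair present, XLOC_058536 on scaffold 658 had 5.94 ± 0.48 FPKM in K11 and 21.7 ± 2.5 in QX1 (log2 difference -1.71 ± 0.14, SE; limma, adjusted p = 3.52e-07). XLOC_013362 on scaffold 1676 had 4.06 ± 2.01 FPKM in K6 and 11.3 ± 1.7 in QX1 (log2 difference -1.35 ± 0.23, SE; limma, adjusted p = 0.000528). XLOC_061498 on scaffold 7278 had 8.80 ± 1.88 FPKM in K11 and 6.94 ± 1.38 in YH9, and XLOC_006606 on scaffold 1298 had 7.27 ± 1.37 in K6 and 9.15 ± 1.12 in YH9. The last 2 were not called between their present genotypes (limma, adjusted p = 0.174 and 0.118).

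Whether a locus that is missing from some genotypes also differs between the genotypes that have it is a question the rule did not settle. For each pair of genotypes, the loci present in both were therefore tested, within a limma fit over the 29364 features that reached 1 FPKM in 3 or more libraries. Of the 50 loci present in K11 and QX1, 19 were called (38.0%), against 19.2% of all features tested, 16.1% of other unannotated loci present in both and 11% of annotated genes present in both. For K6 and QX1 it was 19 of 76 (25%, against 11.8%, 10.4% and 5.66%). For K11 and YH9 it was 19 of 70 (27.1%, against 23.9%, 19.1% and 16.6%), for YH9 and QX1 16 of 64 (25%, against 23.8%, 19.7% and 15.6%), for K6 and K11 11 of 49 (22.4%, against 19.2%, 15.4% and 11.8%) and for K6 and YH9 12 of 56 (21.4%, against 21.9%, 18.4% and 14.1%). In the last 4 pairs the share was near that of all features, a set that also holds features not present in both genotypes. In every pair it was above the shares of other unannotated loci and of annotated genes present in both, though each pair held only 49 to 76 of the loci. The comparisons share libraries and loci, and the shares were not tested against each other. The sets are also not alike. Libraries of an absent genotype add no spread, which tends to make the p-values of these loci too small. A fit on only the genotypes compared called the same number of these loci in every pair. Shares of the other sets in that fit are not given here. The loci were moreover chosen for differing between genotypes, and how much of the higher share goes with that choice was not tested.

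The called differences ran in both directions. K6 was higher at 10 and QX1 at 9 of their 19 loci, K11 at 10 and QX1 at 9, and K6 and YH9 each at 6. K11 was higher at 12 and YH9 at 7, YH9 at 12 and QX1 at 4, and K11 at 8 and K6 at 3. The median size of the difference was 0.51 to 0.74 on the log2(FPKM + 1) scale over the 6 pairs, against 0.32 to 0.45 in other unannotated loci present in both. No difference reached 3 on that scale. The largest called ones were K11 over QX1 at XLOC_051515, with 19.9 ± 2.3 FPKM in K11 and 1.71 ± 0.76 in QX1 (log2 difference 2.98 ± 0.21, SE; limma, adjusted p = 1.25e-07), and K11 over K6 at XLOC_056314, with 29.8 ± 6.7 and 3.33 ± 1.17 FPKM (K6 against K11 -2.84 ± 0.21, SE; limma, adjusted p = 2.19e-07). Both were absent in YH9.

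The largest differences of the remaining pairs were as follows. XLOC_008216, absent in YH9, had 16.3 FPKM in K6 and 1.68 in QX1 (log2 difference 2.71, limma, adjusted p = 5.56e-07). XLOC_018529, absent in K6, had 17.6 FPKM in YH9 and 2.08 in QX1 (2.60, limma, adjusted p = 5.53e-08). XLOC_004095, absent in QX1, had 19.8 FPKM in K11 and 3.41 in YH9 (2.26, limma, adjusted p = 1.45e-06), and XLOC_066361, named above, gave -2.15 for K6 against YH9 (limma, adjusted p = 8.75e-07). That each had an absent, a low and a high genotype follows from how these loci were chosen and is no finding.

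The rule was also applied to 2 libraries of each genotype, so that the left-out library could serve as a value the rule had not used. Leaving out replicate 1, 2 or 3 gave 1452, 1431 and 1431 loci. In genotypes called absent on the other libraries, the left-out library was again listed at 0 in 81.0%, 86.1% and 86.2% of cases, and at least 1 FPKM was reached in 34 of 2388, 14 of 2342 and 13 of 2311 cases. In genotypes called present, the left-out library again reached 1 FPKM in 90.1%, 86.4% and 87.5% of cases. Median values in the left-out library were 2.94, 2.77 and 2.85 FPKM there. The 95th percentile in absent genotypes was 0.36, 0.24 and 0.27 FPKM. Of the loci found on 2 libraries, 75.4% to 76.5% met the full rule.

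The loci were spread over the assembly. They lay on 816 of the 2681 scaffolds that carry unannotated loci, 611 of these with a single locus and at most 6 on a scaffold. Within 10 kb of another such locus lay 103 of the 1095 (9.41%), in 44 clusters of 2 and 5 clusters of 3. Any unannotated locus lay within 10 kb for 31.3% of them and for 28.7% of the other unannotated loci, so their surroundings were about as rich in unannotated transcription as those of the rest. Position and strand were not used by the rule.

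Close neighbours resembled each other in their pattern. In the 54 pairs of neighbouring loci within 10 kb, the same genotype had the highest mean in 39 (72.2%, Wilson 95% interval 59.1% to 82.4%, counting error only), against 26.1% of all pairs of such loci on different scaffolds. The set of absent genotypes was identical in 21 (38.9%), against 10.5%. Opposite states in some genotype occurred in 7 (13.0%), against 66.9%. On the same scaffold but over 50 kb apart, 306 pairs gave 24.8%, 10.1% and 68.0% for the same quantities, close to pairs on different scaffolds. Other unannotated loci that were present somewhere also resembled close neighbours, though by a smaller margin, with the same highest genotype in 40.7% of 551 neighbouring pairs against 28.1% over all their pairs. These shares are descriptions with no test, since loci are not replicates.

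**Figure D4:**
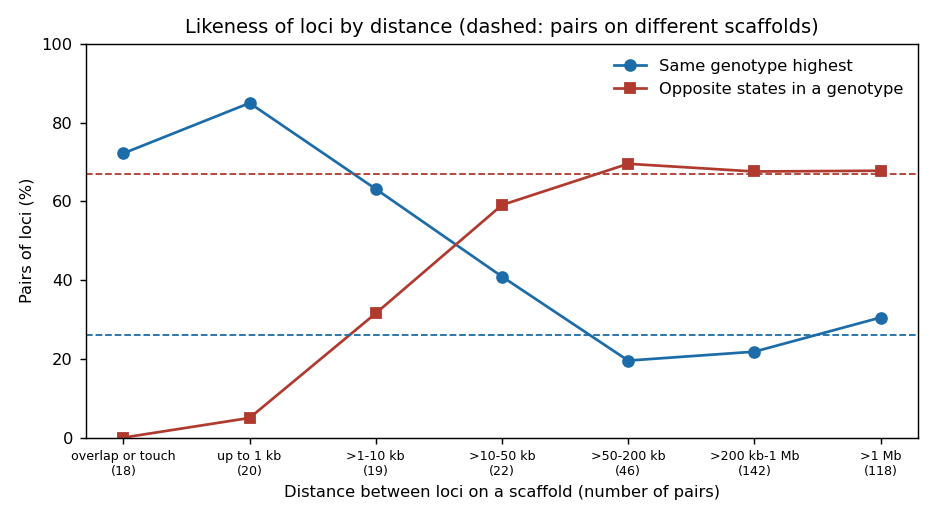
For pairs of the loci on a scaffold, in classes of distance (x axis, number of pairs in brackets), circles give the percentage in which the same genotype had the highest mean and squares the percentage with opposite states in at least 1 genotype. Dashed lines give both values for pairs on different scaffolds (26.1% and 66.9%), which the curves reach beyond 50 kb, while up to 1 kb the same genotype was highest in 85% of 20 pairs.

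The likeness fell off over a short distance. Opposite states occurred in 0 of 18 overlapping pairs, in 5% of 20 pairs up to 1 kb apart, in 31.6% of 19 pairs from 1 to 10 kb, in 59.1% of 22 pairs from 10 to 50 kb and in 69.6% of 46 pairs from 50 to 200 kb. The classes with 18 and 19 pairs are thin. Of the 54 neighbouring pairs, 34 lay on the same strand, with a median gap of 294 bases, and the files do not say whether such close loci are separate transcripts. On opposite strands the same genotype was highest in 12 of 20 pairs, 12 of which overlapped. Whether the counting kept the strands apart is not certain from the labels, so overlapping opposite-strand loci could share reads. The 8 opposite-strand pairs without overlap shared the highest genotype in 5 cases and held opposite states in 3.

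Of the 5 clusters of 3 loci, the one with the largest span lies on scaffold 3106. It holds XLOC_034569, XLOC_034570 and XLOC_034572, all on the minus strand between 261661 and 291222, and all absent in K6 and K11. XLOC_034567, described above, ends 16299 bases before it and is absent in both as well, and so is XLOC_034564 on the plus strand from 100162 to 101049, so all 5 of the loci on this scaffold lacked both Kucha genotypes. XLOC_034569 stood at 0.65, 0.88 and 0.32 FPKM in YH9 and at 1.80, 3.32 and 1.85 in QX1. XLOC_034572 stood at 1.17, 1.46 and 1.35 FPKM in YH9 and at 3.32, 1.31 and 0.96 in QX1. XLOC_034564 was present in YH9 alone, at 3.32, 3.89 and 3.06 FPKM.

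Other unannotated loci of the same stretch did not all share the zeros. XLOC_034568, a minus-strand locus of 34915 bases that overlaps the cluster, was listed in every library. It stood at 1.14, 1.14 and 1.18 FPKM in K6 and 0.80, 0.81 and 0.75 in K11, against 4, 4.36 and 4.93 in YH9 and 15.9, 16.6 and 15.5 in QX1. XLOC_034571 held at most 0.10 FPKM in any Kucha library and 1.39 to 2.88 in QX1, and XLOC_034573 at most 0.06 in Kucha and 0.53 to 3.19 in QX1. XLOC_034566, on the plus strand and overlapping the cluster, was listed at 0.31 FPKM in YH9 replicate 3 and at 0 in the other 11 libraries, QX1 included. QX1 had the highest mean at XLOC_034567, at the 3 loci of the cluster and at XLOC_034568. At XLOC_034572 this rested on 1 library, since QX1 stood at 3.32, 1.31 and 0.96 FPKM against 1.17, 1.46 and 1.35 in YH9. The scaffold was taken as that of the cluster with the most loci, ties going to the larger span, and its loci outside the cluster were chosen after their values were seen.

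**Figure D5:**
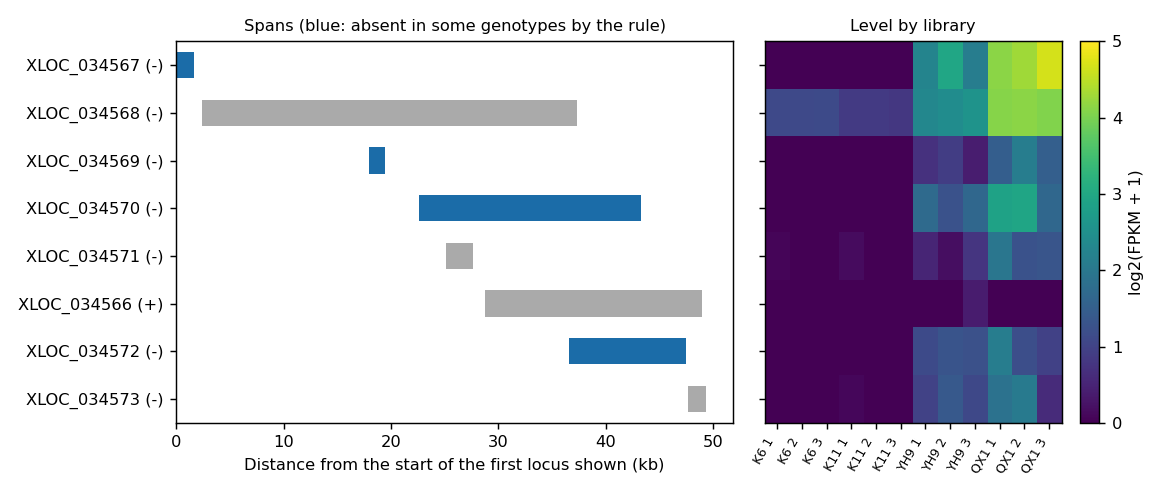
The left panel maps the unannotated loci of the stretch on scaffold 3106 by their distance in kb from the start of XLOC_034567, with blue bars for loci absent in some genotypes by the rule and grey bars for the others. The right panel gives log2(FPKM + 1) in the 12 libraries, where the blue loci are at 0 in all 6 Kucha libraries and XLOC_034568 is low but above 0 in them.

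Scaffold 3845 held a cluster high in K11 alone, with K6 at or near 0 like the conventional varieties. XLOC_042122, XLOC_042123 and XLOC_042124 follow each other on the minus strand between 482086 and 489753, with gaps of 138 and 103 bases. They stood at 18.3, 16.3 and 18.7 FPKM, at 4.79, 2.64 and 2.28 FPKM and at 3.83, 2.76 and 3.32 FPKM in K11. The last 2 were listed at 0 in all other libraries, and XLOC_042122 held at most 0.20 FPKM in any of them. Such short gaps on the same strand leave it unresolved whether these are 3 transcripts or 1.

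On scaffold 886 a cluster joined like and unlike loci. XLOC_066842 on the plus strand and XLOC_066857 on the minus strand overlap, and both were absent in K11 and highest in YH9, with means of 5.35 ± 1.01 and 4.14 ± 0.55 FPKM there. XLOC_066858 begins 5861 bases further on and was present in K6 alone, at 1.66, 2.66 and 1.13 FPKM. Among the 51 scaffolds with at least 3 of the loci, 17 had a genotype that was absent at all of them. On scaffolds 3106 and 1341 both Kucha genotypes were absent at all. Taken singly, the genotypes were absent at 33.5% (YH9) to 47.9% (K11) of the loci, so unrelated loci would sometimes share an absent genotype. How often was not worked out, so the 17 scaffolds do not show that absences lie together.

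Some neighbours of an absent locus were transcribed in the genotypes that lacked it. For 137 of the 1095 loci another unannotated locus, present somewhere and not itself absent by the rule, lay within 10 kb. In 52 of these (38.0%) the neighbour was present in every genotype that lacked the locus, where all combinations of such loci give 69.4%. The same genotype was highest in the locus and its neighbour in 70 of 137 (51.1%), against 26.8% over all combinations. In 36 of the 137 (26.3%) the locus and its neighbour overlapped, and the shares without these were not worked out. Of the strongest loci named above, XLOC_034720 overlapped XLOC_034719 on the opposite strand. XLOC_010633 overlapped XLOC_010632 on its own strand. Annotated genes carry no position in the files, so those around the loci could not be included.

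The threshold of 1 FPKM cuts through a continuum. XLOC_028719, just inside, stood at 1.04, 1.00 and 1.02 FPKM in YH9 and at 0 in all other libraries. XLOC_020818 and XLOC_042912 were also just inside, with their lowest deciding value at 1.00 FPKM. XLOC_040762, just outside, stood at 1.19, 1.62 and 0.99 FPKM in YH9, and XLOC_057113 and XLOC_058907 likewise missed with a deciding value of 0.99. In all, 130 of the 2810 unannotated loci with an absent genotype had a deciding value of 0.9 to 1.1 FPKM.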

How the data were processed

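The authors deposited 1 table per library with FPKM values to 2 decimals, per the file headers, and for unannotated loci a scaffold, strand, start, end and length. Alignment tools listed in the submitters' processing notes are TopHat2 2.1.1 and Bowtie2 2.2.8. For the program behind the FPKM, the genome build and filters, nothing is given in the sources used here. Libraries were depleted of ribosomal RNA, per the labels' protocols, and dUTP was used in second-strand synthesis, but that text also names retinas, which no other label matches.

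Absent means listed at 0 in all 3 libraries and present means at least 1 FPKM in all 3. Present genotypes were compared by limma 3.58.1 (R 4.3.3; trended, robust prior) on log2(FPKM + 1), over 29364 features reaching 1 FPKM in 3 or more libraries, 1 mean per genotype, Benjamini-Hochberg adjustment over all features. Calls needed a log2 difference of at least 1 with adjusted p under 0.05. The spread of a locus was estimated over all 12 libraries, those of absent genotypes at 0 included. On simulated data for K6 against QX1 with 29364 features, 93% of 100 features changed 3-fold were called. Neighbours were joined over gaps of at most 10 kb. Absolute depth is unknown; intervals cover counting error only. Replicates shared at most 1.32% of values above 0.

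Loci named are the highest of each pattern, all that set Kucha against conventional teas, the 3 largest clusters, the 10 strongest, the longest and shortest, the largest called difference per pair, and those at the threshold. Members, lists and rules were chosen with earlier results of these data known. Alternatives varied thresholds, scaling, filter, pseudocount, gap, block and libraries.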

Additional observations from a re-analysis of the deposited data

How the results depend on the processing

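The number of loci follows the thresholds. It was 1484 at a presence threshold of 0.5 FPKM, 678 at 2 FPKM and 260 at 5 FPKM, and the loci with every genotype present or absent numbered 415, 120 and 28. The share within 10 kb of another was then 11.9%, 6.49% and 3.08%, and it was 12.1% with a gap of 50 kb. Loci absent in both Kucha genotypes and present in both conventional varieties numbered 14, 4 and 0 at these thresholds in place of 9, and the reverse 7, 1 and 0 in place of 2. With absence allowed up to 0.05 FPKM the median length was 2230 bases. At a presence threshold of 2 FPKM the left-out library was at 0 in 83.1% of absent cases, in place of 84.4%. With a pseudocount of 0.1, 17 in place of 11 loci were called between K6 and K11, and the cause was not tested. Leaving out each library gave 1159 to 1202 loci, 271 to 299 with every genotype typed, 9.38% to 10.5% within 10 kb, 36.9% to 41.9% of neighbouring pairs with the same absent set, 69.2% to 75% with the same highest genotype, and median lengths of 2036 to 2077 bases. The called loci ranged from 18 to 21 (K11 and QX1), 17 to 20 (K11 and YH9), 11 to 13 (K6 and K11), 17 to 23 (K6 and QX1), 12 to 14 (K6 and YH9) and 14 to 19 (YH9 and QX1). Loci present in K6 alone rose from 29 to 46 without K6 replicate 2. With the replicate number as a block the calls were 19, 19, 11, 19, 12 and 16 in the same order, as without it. Deviations of same-numbered libraries correlated at -0.10 to 0.06, so the numbers do not pair them.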

Other observations

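Single libraries sometimes listed a locus that the other 2 libraries of the genotype did not. XLOC_066277 stood at 11.5 FPKM in YH9 replicate 1 and at 0 in replicates 2 and 3, and XLOC_066083 at 6.44 FPKM in QX1 replicate 1 and at 0 in the others, while its K6 libraries held 19.7, 31.5 and 27.3 FPKM. XLOC_039953 stood at 6.74 FPKM in K6 replicate 2 and at 0 in the 11 other libraries, and XLOC_066914 at 5.80 FPKM in YH9 replicate 2 and at 0 in the 11 others. Such loci of at least 1 FPKM numbered 35 in K6 replicate 1, 29 in QX1 replicate 1 and 3 to 20 in the other 10 libraries. The reverse, a library at 0 where the other 2 of its genotype held at least 1 FPKM, occurred at 80 loci in K6 replicate 2 and at 3 to 21 in the other 11 libraries. These loci were chosen after their values were seen.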
